A study of Mus musculus with 8 samples.

Results

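The nuclear-encoded subunits of oxidative phosphorylation were followed in the hearts of wild-type (WT) and SIRT1 knockout (SIRT1 KO) mouse embryos. Members were chosen by name. A probe belonged where its RefSeq accession mapped to a symbol starting with *Nduf*, *Uqcr*, *Atp5*, *Cox4*, *Cox5*, *Cox6*, *Cox7* or *Cox8*, or to *Sdha*, *Sdhb*, *Sdhc*, *Sdhd*, *Cycs* or *Cyc1*. This gave 119 probes of 93 genes, out of 41174 non-control probes of which 28223 carried the name of 1 of 19096 genes. The rule used names and no signal.

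The study compared whole hearts at E18.5, shortly before birth, from 4 WT and 4 SIRT1 KO embryos, with 1 heart on each one-color Agilent array. All embryos were C57BL/6 (C57BL/6J in the study's methods) and came from crosses of heterozygous parents kept on a chow diet. SIRT1 is an NAD-dependent protein deacetylase, and its deletion came through the germ line and was not limited to heart muscle. Hearts of both sexes were used by the study, and the p-values below measure the spread between these 8 hearts.

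Oxidative phosphorylation is the last stage of fuel use in mitochondria. Complexes I and II take electrons from NADH and succinate, complex III passes them to the small carrier cytochrome c, complex IV hands them to oxygen, and complex V, the ATP synthase, makes ATP from the proton gradient that complexes I, III and IV build. Most subunits are encoded in the nucleus, and assembly factors help to build each complex without staying in it. Heart muscle is one of the tissues richest in mitochondria, and its use of them increases around birth.

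Signal is given throughout as log2 of the array's processed intensity minus the 75th percentile of that array, so that 0 marks that percentile, and a log2 difference is always that of the hearts labelled SIRT1 KO minus the WT hearts. limma was fitted to the 25615 probes that the scanner software marked as well above background on 4 or more arrays, and p-values were adjusted over all of them (Benjamini-Hochberg, threshold 0.05). The WT arrays shared one slide and the SIRT1 KO arrays another, each scanned on its own day, and an effect of slide or scan cannot be told apart from one of genotype. *Sirt1* itself did not follow the labels. Its brighter probe (A_52_P358612) read -0.14, 0.32, 0.00 and 0.00 in the 4 WT hearts and 0.64, 0.50, 0.43 and 0.75 in the hearts labelled SIRT1 KO, which is a log2 difference of 0.54 ± 0.11 (SE, limma adjusted p = 0.0323). Its other probe (A_51_P141152) read -0.27, -0.21, -0.21 and -0.12 in the WT hearts and -0.29, -0.42, -0.52 and -0.02 in the others, a log2 difference of -0.11 with an adjusted p of 0.589. Where either probe lies relative to the deletion was not analysed here, and every direction below is taken from the labels. The 10 cardiomyocyte markers on the array, among them *Tnnt2*, *Myh6* and *Actc1*, were all measured in these hearts, and the 4 lung markers were not well above background on enough arrays to be tested. On the WT arrays the 75th percentile ranged from 939 to 1033 intensity units and on the other arrays from 777 to 906. No spot was saturated, and the number of arrays limits the precision.

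Respiratory chain genes were among the brightest on the array. Of the 119 probes, 116 probes of 90 genes were tested, 115 of them well above background on all 8 arrays, and 111 (95.7%) were among the 8539 brightest of all tested probes. The 3 that were not tested belong to complex IV isoform genes. *Cox4i2* and *Cox7b2* stood well above background on none of the 8 arrays, and *Cox8c* only on 1 array, from a heart labelled SIRT1 KO. The tested probes covered 37 genes of complex I (49 probes), 7 complex I assembly factors (10 probes), 4 genes of complex II (5 probes), 9 of complex III (11 probes), cytochrome c (3 probes), 15 of complex IV (16 probes) and 17 of complex V (22 probes). Genes were assigned by name, so that *Ndufa4*, now placed in complex IV, was counted with complex I.

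Between the genotypes only *Ndufaf2*, which encodes an assembly factor of complex I, passed the threshold, and it fell. Thus limma called 1 of 116 probes lower and 0 higher, where it called 4.88% of all tested probes, 0.91% lower and 3.97% higher. Among the 8539 brightest probes it called 1.83%, 0.703% lower and 1.12% higher. At an unadjusted p under 0.05 there were 12 member probes, 8 lower and 4 higher, against 21.5% of all tested probes (8.1% lower and 13.4% higher) and 16.2% of the 8539 brightest (9.22% lower and 6.99% higher). The labels did not overlap on 6 member probes, 3 lower and 3 higher. The corresponding share was 13.7% of all tested probes (5.11% lower and 8.63% higher) and 11.7% of the 8539 brightest (6.5% lower and 5.19% higher). Counted over both directions, the share of members past each of these limits was below the background. By sign alone, 79 of the 116 probes (68.1%) were lower in the hearts labelled SIRT1 KO, compared with 48.3% of all tested probes and 58.4% of the 8539 brightest. That count was 92 without SIRT1 KO replicate 3, 61 without SIRT1 KO replicate 4, 112 with no scaling and 35 with arrays scaled on the median of the members. The median log2 difference of the members was -0.06, with a range from -0.34 to 0.44, and was 0.01 over all tested probes and -0.03 over the 8539 brightest. Whole hearts were used, so a lower signal from fewer cells of a type and from less RNA per cell cannot be told apart.

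**Figure D1:**
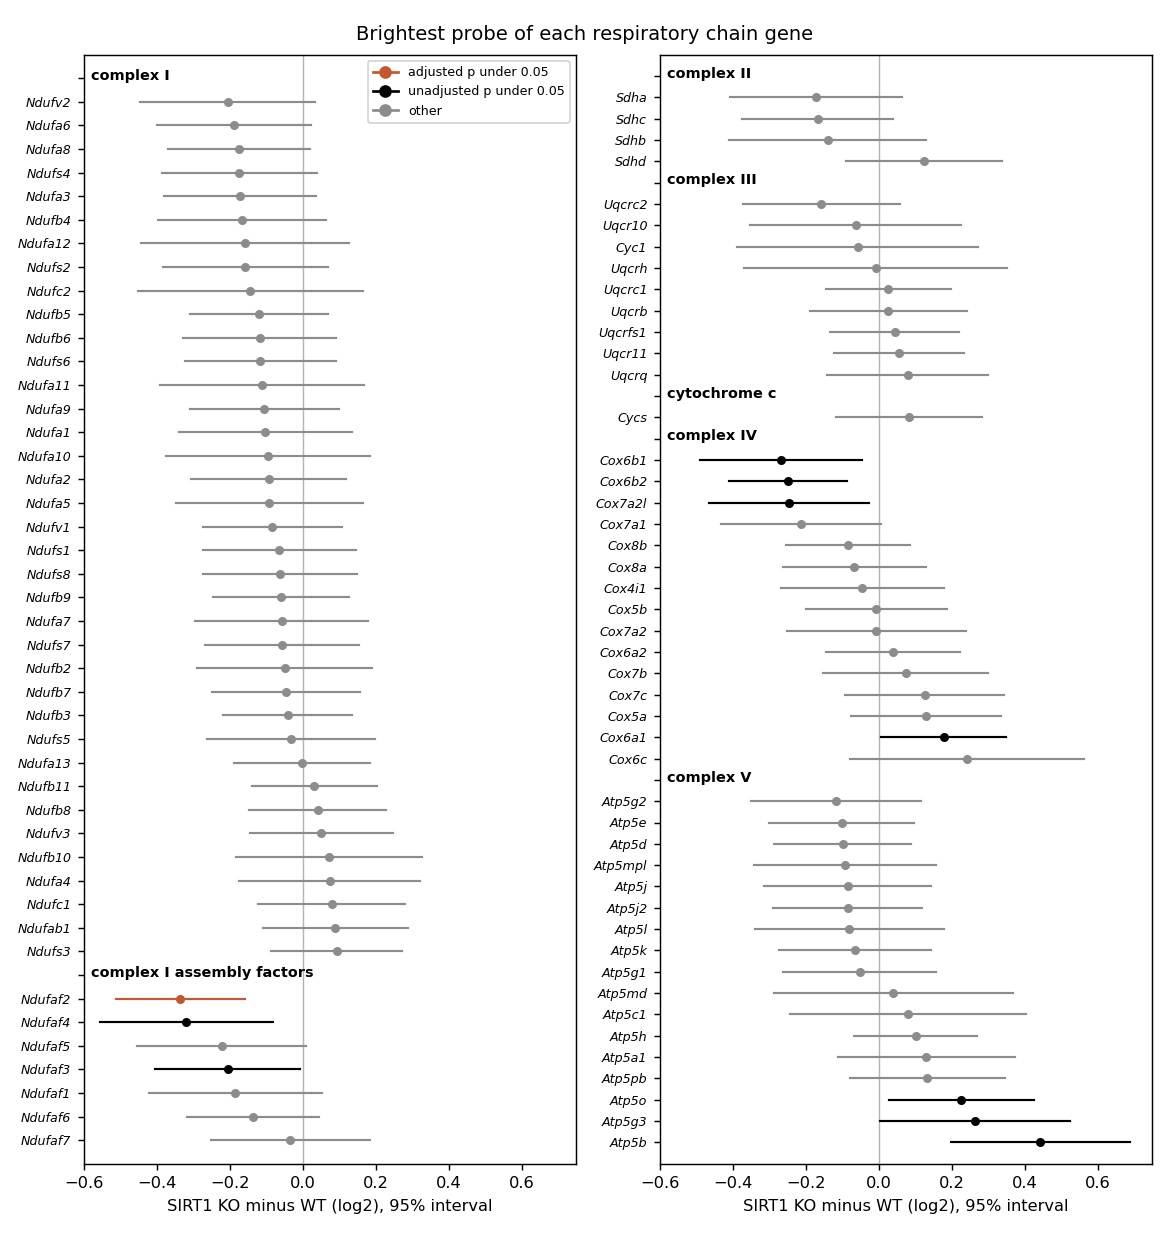
Log2 difference of hearts labelled SIRT1 KO over WT hearts (horizontal axis, log2) for the brightest probe of each of the 90 tested genes, grouped by complex, with the 95% interval from limma as a bar (n = 4 hearts per genotype, 3 WT hearts for *Uqcrc2*). *Ndufaf2*, at -0.34, is the only gene past the adjusted threshold, all 7 assembly factors lie below 0, and the largest value is 0.44 for *Atp5b*.

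The complexes differed in where their probes lay. The assembly factors of complex I had the lowest median log2 difference, -0.19, with all 10 probes below 0 and 4 of them at an unadjusted p under 0.05. Of all tested probes 48.3% were below 0 and 8.1% were lower at that limit, and of the 8539 brightest 58.4% and 9.22%. Complex II followed at -0.14 (3 of 5 probes below 0), cytochrome c at -0.11 (2 of 3 probes) and complex I at -0.08 (39 of 49 probes). Complex IV lay at -0.02 (10 of 16 probes below 0), complex III at 0.00 (6 of 11 probes) and complex V at 0.03 (9 of 22 probes). Single hearts moved these values. Without SIRT1 KO replicate 4 the median was -0.009 in complex I (31 of 49 probes below 0), -0.06 in complex II, 0.07 in complex III, 0.01 in complex IV and 0.12 in complex V, and -0.15 for the assembly factors. Without SIRT1 KO replicate 3 it was -0.14 in complex I, -0.21 in complex II, -0.19 for cytochrome c, -0.07 in complex III, -0.08 in complex IV and -0.04 in complex V, and -0.27 for the assembly factors. Scaling moved them too. Median scaling and no scaling change the log2 difference by the same amount for every probe with a value on all 8 arrays. A sign that turns with them therefore tells nothing particular to a gene. With each array's median in place of its 75th percentile the median of all tested probes shifted to -0.12, and with no scaling to -0.21, so that every complex then lay below 0. The median of the assembly factors and that of complex II were below 0 in all 20 alternatives, the lowest for the assembly factors being -0.41 and the highest -0.08, whereas that of complex III was below 0 in 10 and that of complex V in 4. Among these alternatives, the analysis of variance, a block for the replicate number and the deposited series values cannot move these medians. Their agreement was fixed in advance.

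**Figure D2:**
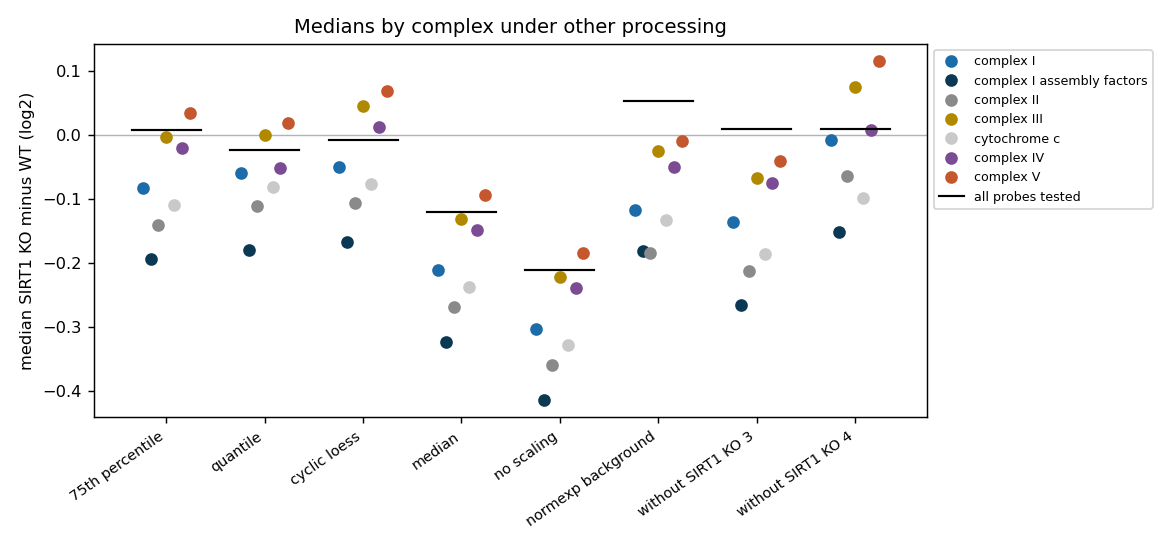
Median log2 difference of hearts labelled SIRT1 KO over WT hearts (vertical axis, log2) for each complex (colored points) and for all tested probes (black line), under 5 scalings, another background correction, and with one of 2 hearts left out. The assembly factors of complex I stay below the line for all probes in every column shown, while complex V moves from 0.03 at the main scaling to below 0 with no scaling, where the line itself is at -0.21.

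The respiratory chain genes spread more among the hearts labelled SIRT1 KO than among the WT hearts. For each probe the WT mean was subtracted, and the median over the 116 probes was taken for each heart. These medians were 0.02, 0.00, 0.00 and 0.01 in the 4 WT hearts and -0.02, -0.13, 0.13 and -0.16 in the 4 hearts labelled SIRT1 KO. The WT hearts lay close together, and the other hearts fell on both sides of them. Replicate 3 labelled SIRT1 KO was the highest of all 8 hearts on 65 of 116 member probes (56.0%), compared with 14.5% of all tested probes and 17.3% of the 8539 brightest. Replicate 4 was the lowest of the 8 on 60 member probes (51.7%), compared with 18.3% of all tested probes and 26.5% of the 8539 brightest. The standard deviation was larger in the hearts labelled SIRT1 KO than in the WT hearts on 99 member probes (85.3%), against 60.5% of all tested probes. Its median over the members was 0.08 in WT hearts and 0.15 in the others, and over all tested probes 0.13 and 0.15. The members thus stood apart from all tested probes by a smaller spread in the WT hearts, with 0.15 in the others for both. For the standard deviation no comparison was made with the 8539 brightest probes.

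Replicate 3 was the highest of the hearts labelled SIRT1 KO in all 7 sets, and the lowest differed between them. In complex V the medians of the hearts labelled SIRT1 KO were 0.09, 0.00, 0.23 and -0.18, in complex IV -0.06, -0.06, 0.15 and -0.12, and in complex I -0.04, -0.14, 0.11 and -0.16. Replicate 4 was lowest in each of these and in complex III. In the assembly factors (-0.17, -0.30, -0.04 and -0.27), complex II (-0.11, -0.21, 0.13 and -0.03) and cytochrome c (-0.15, -0.27, 0.12 and -0.14) replicate 2 was lowest. Array-wide values also differed between the hearts, and not all in the order of the members. The 75th percentile was lowest on the array of replicate 3 (777 intensity units) and was 906, 900 and 863 on the other arrays of that label, and the share of spots well above background was 60.0% for replicate 3 against 62.4%, 65.4% and 64.3%. Of the 10 cardiomyocyte markers 7 were higher and 3 lower, none of them called, with a median log2 difference of 0.10. Their summed signal (linear, as a multiple of the 75th percentile) rests mainly on the brightest probes. It was 1627 to 1788 in WT hearts and 1858, 1907, 2023 and 1775 in the hearts labelled SIRT1 KO. Among the latter it was highest in replicate 3 and lowest in replicate 4. Over the 3 liver markers tested, it was 3.37 to 11.0 in WT hearts and 48.0, 6.22, 4.00 and 23.3 in the others. Single markers of other cell types passed the threshold in 3 lists. The embryonic globin gene *Hbb-y* was higher by 0.92 (1 of 6 erythroid markers tested), from a dim WT mean of -3.80. *Myog* was higher by 0.52 (1 of 4 skeletal muscle markers, of which 3 lay wholly above the WT hearts), from a WT mean near background, -5.46. *Dio2* was lower by 0.80 (1 of 2 brown fat markers), while none of the 3 liver markers was called. All 5 endothelial markers were lower, none of them called, with a median log2 difference of -0.12 and a summed signal of 35.8 to 41.3 in WT hearts and 31.3 to 37.7 in the others. The part of these values in the respiratory chain was not tested.

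**Figure D3:**
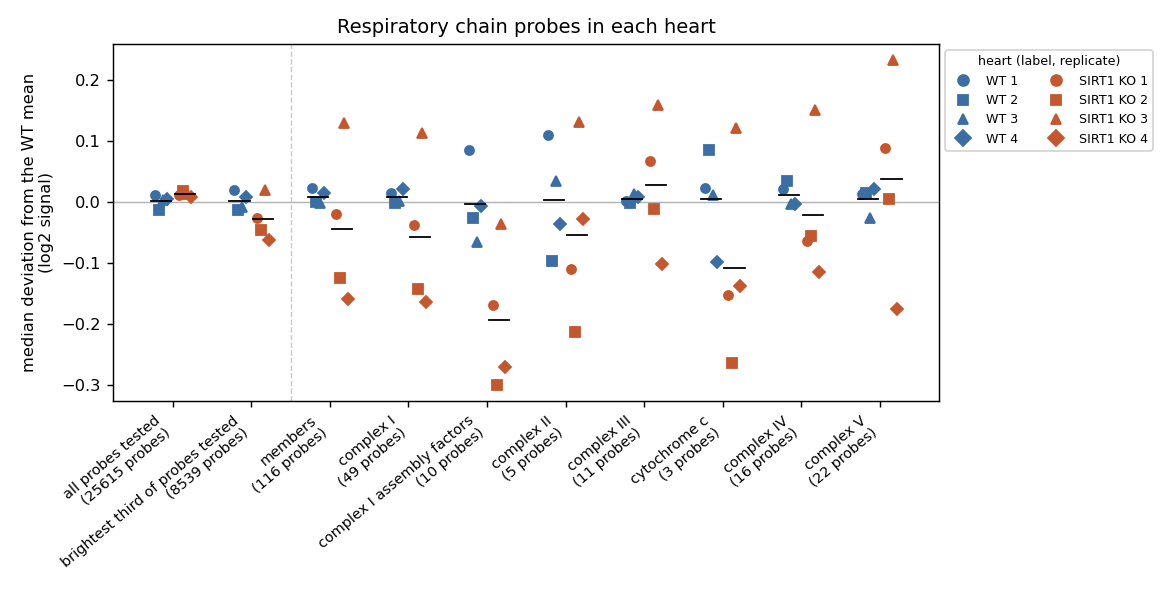
Median deviation from the WT mean (vertical axis, log2 signal) of each heart, over all tested probes, the 8539 brightest, the 116 member probes and each complex, with the mean of the 4 hearts of a label as a short line. Replicate 3 labelled SIRT1 KO (orange triangles) lies at 0.13 and replicate 4 (orange diamonds) at -0.16 over the members, while the WT hearts lie between 0.00 and 0.02.

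Setting the median of one complex against that of the other members on the same array takes out a shift that all members share. For the assembly factors this difference was 0.07, -0.03, -0.07 and -0.02 in the WT hearts and -0.16, -0.18, -0.17 and -0.11 in the hearts labelled SIRT1 KO, without overlap. For complex III it was -0.02, 0.00, 0.01 and -0.01 in the WT hearts and 0.10, 0.12, 0.04 and 0.06 in the others, again without overlap. For complex I it was -0.012, -0.013, 0.006 and 0.028 against -0.027, -0.053, -0.027 and -0.018, apart by a gap narrower than the spread of either label. In the remaining 4 sets (complexes II, IV and V and cytochrome c) the labels overlapped. These within-array differences are descriptions, and no test was made on them.

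Many nuclear genes of the respiratory chain share promoter motifs of the factors NRF1, GABP (an ETS factor), YY1 and the estrogen-related receptors. Promoters were read from RefSeq (GRCm38.p6) from 250 bases before to 50 after the start site, and 76 of the 93 genes matched, with 81 promoters. Both strands were searched for GCGCATGC (NRF1, which overlaps its own reverse complement), CCGGAAG (ETS and GABP), AAGATGGCG (YY1) and AAGGTCA (half-site of the estrogen-related receptors). The NRF1 motif was found in 16.0% of member promoters and 2.71% of all 32851, the ETS motif in 22.2% and 8.86%, the YY1 motif in 8.64% and 1.40%, and the half-site in 9.88% and 4.72%. Member promoters were also richer in G and C, with a median of 58.3% against 52.7%, and 40 of the 76 genes held none of the 4 motifs. Promoters to show were picked after the values were seen and not strictly by rank, as *Atp5g3*, *Cox6c* and *Atp5o* lay above *Cox6a1*. The promoters of 4 genes described below are shown, 2 lower and 2 higher in the hearts labelled SIRT1 KO. They are written 5′ to 3′ on the strand of the gene, with the motifs in capitals.
*Ndufaf2* (GRCm38.p6, chr13:108158576-108158875, minus strand): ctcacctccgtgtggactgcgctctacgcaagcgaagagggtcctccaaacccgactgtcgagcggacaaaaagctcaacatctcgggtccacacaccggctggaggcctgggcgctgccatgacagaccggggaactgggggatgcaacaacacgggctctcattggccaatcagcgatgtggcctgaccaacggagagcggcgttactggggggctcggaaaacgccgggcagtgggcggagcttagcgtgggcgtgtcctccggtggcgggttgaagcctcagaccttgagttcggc
*Ndufaf4* (GRCm38.p6, chr4:24897833-24898132, plus strand): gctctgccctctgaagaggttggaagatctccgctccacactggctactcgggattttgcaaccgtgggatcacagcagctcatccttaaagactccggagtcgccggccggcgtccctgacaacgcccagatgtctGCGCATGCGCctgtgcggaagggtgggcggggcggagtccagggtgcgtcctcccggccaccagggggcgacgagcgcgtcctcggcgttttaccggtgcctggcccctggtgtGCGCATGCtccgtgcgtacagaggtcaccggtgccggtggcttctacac
*Cox6a1* (GRCm38.p6, chr5:115348909-115349208, minus strand): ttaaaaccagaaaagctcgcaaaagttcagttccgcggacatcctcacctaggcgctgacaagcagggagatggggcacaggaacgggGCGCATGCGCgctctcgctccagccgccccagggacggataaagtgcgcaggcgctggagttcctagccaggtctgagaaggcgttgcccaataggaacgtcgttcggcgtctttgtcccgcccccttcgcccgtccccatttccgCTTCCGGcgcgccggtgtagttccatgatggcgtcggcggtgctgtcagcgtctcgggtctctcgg
*Atp5b* (GRCm38.p6, chr10:128083057-128083356, plus strand): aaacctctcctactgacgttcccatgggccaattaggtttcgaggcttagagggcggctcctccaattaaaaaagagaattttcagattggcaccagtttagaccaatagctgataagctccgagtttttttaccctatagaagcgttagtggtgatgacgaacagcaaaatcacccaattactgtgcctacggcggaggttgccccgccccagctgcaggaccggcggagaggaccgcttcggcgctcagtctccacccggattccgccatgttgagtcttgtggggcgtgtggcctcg
*Ndufaf4* holds the NRF1 motif on both strands in an overlapping pair that starts 113 and 111 bases before the start site, and again just after it. *Cox6a1* holds such a pair at 162 and 160 bases before the start site and an ETS motif at 16 bases. None of the 4 motifs was found in this window of *Ndufaf2* or *Atp5b*. A match describes the letters of the window, and binding was not measured.

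Ndufaf proteins bind complex I while its arms are being joined and are released from the finished enzyme. *Ndufaf2* (probe A_52_P2947, chromosome 13) read 3.67, 3.68, 3.51 and 3.56 in the WT hearts and 3.22, 3.21, 3.41 and 3.24 in the hearts labelled SIRT1 KO. Every heart labelled SIRT1 KO lay below every WT heart, with replicate 3 nearest to them. The log2 difference was -0.34 ± 0.08 (SE, limma adjusted p = 0.0444), which left 79.2% of the WT signal. Leaving out any one of the hearts other than SIRT1 KO replicate 3 ended the call, with adjusted p-values from 0.0795 to 0.121 and differences from -0.37 to -0.31. Without SIRT1 KO replicate 3 the difference was -0.38, with an adjusted p of 0.0270. The call was also lost with a block for the replicate number and when probes at background were kept in the fit (adjusted p = 0.0907). It was lost as well with the analysis of variance of the study's methods (adjusted p = 0.0598) and with arrays scaled on the median of the members (log2 difference -0.22, adjusted p = 0.245). Over all alternatives the adjusted p lay between 0.0116 and 0.245.

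*Ndufaf4*, another assembly factor that acts early on complex I, had 3 probes, none past the adjusted threshold at the main settings. The brightest (A_51_P162098, chromosome 4) read 4.72, 4.58, 4.38 and 4.72 in the WT hearts and 4.45, 4.23, 4.31 and 4.13 in the hearts labelled SIRT1 KO, which is a log2 difference of -0.32 ± 0.10 (SE, limma adjusted p = 0.127). The labels overlapped through WT replicate 3, which lay below SIRT1 KO replicate 1. The other probes lay at -0.29 with an adjusted p of 0.134 (A_52_P287387) and at -0.09 with an adjusted p of 0.517 (A_52_P325265). The brightest *Ndufaf4* probe passed with normexp background correction (adjusted p = 0.0302), with median scaling (0.0425) and with no scaling (0.0182), and its highest adjusted p over the alternatives was 0.316. *Ndufaf3* lay at -0.21 (adjusted p = 0.219), *Ndufaf5* at -0.22 (adjusted p = 0.252), *Ndufaf1* at -0.18 (adjusted p = 0.343) and *Ndufaf6* at -0.14 (adjusted p = 0.360), all from limma. For *Ndufaf7*, a methyltransferase that modifies a complex I subunit during assembly, the probes lay at -0.03 and -0.09. On 9 of these 10 probes, therefore, the difference stayed short of the threshold.

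**Figure D4:**
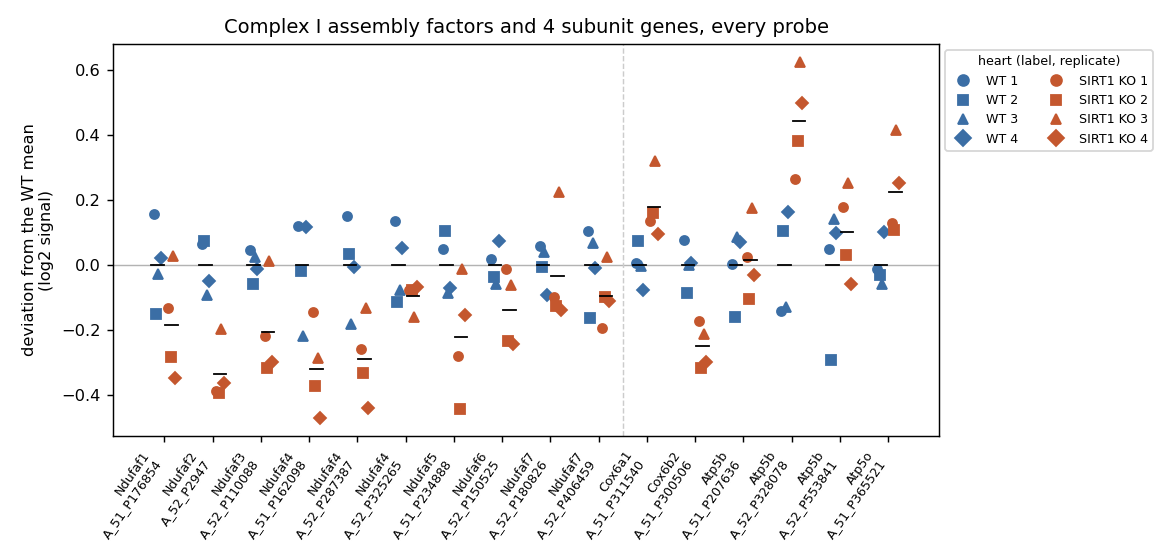
Deviation from the WT mean (vertical axis, log2 signal) in every heart for the 10 probes of the complex I assembly factors (left of the dashed line) and for every probe of *Cox6a1*, *Cox6b2*, *Atp5b* and *Atp5o* (right), with the mean of the 4 hearts of a label as a short line. All 4 hearts labelled SIRT1 KO lie below all WT hearts for *Ndufaf2*, and all lie above them for 1 of the 3 *Atp5b* probes, A_52_P328078.

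By limma 4.88% of all tested probes passed the threshold and 21.5% had an unadjusted p under 0.05. The subunits of complex I itself gave 0 calls among 49 probes and 1 probe at that unadjusted limit. That probe (A_51_P458540) belongs to *Ndufa12*, a subunit that takes the place of the NDUFAF2 protein in the finished complex. It read 2.51, 2.46, 2.54 and 2.36 in the WT hearts and 2.31, 2.14, 2.24 and 1.97 in the hearts labelled SIRT1 KO, which is a log2 difference of -0.30 ± 0.09 (SE, limma adjusted p = 0.101). The labels did not overlap on it, whereas they overlapped on both other *Ndufa12* probes, which lay at -0.21 and -0.16. The probe A_51_P458540 of *Ndufa12* passed with normexp (adjusted p = 0.0425), median scaling (0.0357) and no scaling (0.0181). *Ndufv2*, an iron-sulfur subunit of the NADH-binding arm, had the lowest value of the brightest probes of complex I genes, -0.21 (adjusted p = 0.301). The accessory subunit *Ndufa6* lay at -0.19 (adjusted p = 0.282). *Ndufs3*, a core subunit of the matrix arm, was at the other end with 0.09 (adjusted p = 0.534), and its sign turned with median scaling (-0.04) and no scaling (-0.13). *Ndufa8*, an accessory subunit of the intermembrane space, had 2 probes that disagreed, -0.18 on the brighter and 0.11 on the other, with adjusted p-values of 0.279 and 0.450. *Ndufa4*, named for complex I and now placed in complex IV, was counted with complex I throughout. It lay at 0.07 (adjusted p = 0.737), and its sign too turned with median scaling (-0.05) and no scaling (-0.15).

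Complex II, succinate dehydrogenase, is encoded wholly in the nucleus and also works in the citric acid cycle. None of its 5 probes passed the threshold in limma, and 0 had an unadjusted p under 0.05. These limits were passed by 4.88% and 21.5% of all tested probes. *Sdhc*, a membrane anchor, read 5.04, 4.88, 4.88 and 4.93 in the WT hearts and 4.71, 4.70, 4.99 and 4.66 in the hearts labelled SIRT1 KO, which is a log2 difference of -0.17 (limma adjusted p = 0.327). Replicate 3 labelled SIRT1 KO lay among the WT hearts, and the other hearts of that label below them. The flavoprotein gene *Sdha* had a probe at -0.17 and another at 0.06, and the iron-sulfur gene *Sdhb* lay at -0.14. *Sdhd*, the other membrane anchor, lay at 0.12 (adjusted p = 0.479), and at 0.00 with median scaling and -0.09 with no scaling.

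Complex III and cytochrome c gave 0 calls on 14 probes by limma and 0 at an unadjusted p under 0.05. Over all tested probes the shares past these limits were 4.88% and 21.5%. *Uqcrc2*, a core protein, had the lowest value of the brightest probes of complex III genes, -0.16 ± 0.09 (SE, adjusted p = 0.372). It rests on 3 WT hearts, since the spot of WT replicate 4 was marked as an outlier by the scanner software and was dropped. *Uqcrq*, a small accessory subunit, had the highest such value, 0.08 (adjusted p = 0.679), which was -0.05 with median scaling and -0.14 with no scaling. *Cycs*, the gene of somatic cytochrome c, had 3 probes that did not go one way. They lay at 0.08, -0.11 and -0.24, with adjusted p-values of 0.627, 0.533 and 0.246. The first and brightest of them was -0.05 with median scaling and -0.14 with no scaling.

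Complex IV, cytochrome c oxidase, had 0 calls among 16 probes by limma, and 4 probes at an unadjusted p under 0.05, 3 lower and 1 higher, where 4.88% and 21.5% of all tested probes passed these limits. Lower were both forms of subunit 6b, which lies where the monomers of the dimer meet. *Cox6b2*, the form first known from testis, read -0.44, -0.61, -0.52 and -0.51 in the WT hearts and -0.69, -0.84, -0.73 and -0.82 in the hearts labelled SIRT1 KO, without overlap, a log2 difference of -0.25 ± 0.07 (SE, limma adjusted p = 0.0857). *Cox6b2* passed with array weights (adjusted p = 0.0427), median scaling (0.0313) and no scaling (0.0150), and its highest adjusted p over the alternatives was 0.455. *Cox6b1*, the form of most tissues, read 3.67, 3.76, 3.81 and 3.82 against 3.48, 3.46, 3.74 and 3.31, a log2 difference of -0.27 ± 0.10 (SE, limma adjusted p = 0.161). Replicate 3 of the hearts labelled SIRT1 KO reached into the WT range for *Cox6b1*, and without it the adjusted p was 0.0415, within a range over all alternatives from 0.0143 to 0.410. *Cox7a2l*, which links complexes III and IV in supercomplexes, lay at -0.25 (adjusted p = 0.188).

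*Cox6a1*, the non-muscle form of subunit 6a, was the member of complex IV with an unadjusted p under 0.05 and a higher signal in the hearts labelled SIRT1 KO. It read 8.17, 8.24, 8.16 and 8.09 in the WT hearts and 8.30, 8.33, 8.48 and 8.26 in the others. The labels did not overlap, by the narrow gap between 8.24 and 8.26, and the log2 difference was 0.18 ± 0.08 (SE, limma adjusted p = 0.218), which turned to -0.04 with no scaling. *Cox6c*, a small membrane subunit, had the highest log2 difference of complex IV, 0.24 ± 0.14 (SE, adjusted p = 0.359), which was 0.11 with median scaling and 0.02 with no scaling, with replicate 4 of the hearts labelled SIRT1 KO at the low end of the WT hearts and the other 3 above them.

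Several subunits of complex IV exist in a form of heart and skeletal muscle and a form of other tissues, and the muscle form takes over as the heart matures. Of 6 pairs considered, 4 could be computed, since *Cox4i2* was below background and *Ndufa4l2* was not among the named probes. For each array the log2 signal of the brightest probe of one form was subtracted from that of the other, so that a shift of a whole array drops out. The labels were compared by permuting them over the hearts (exact, two-sided), and 0.0286 is the smallest p this can give, also with 1 heart left out. Muscle *Cox7a1* minus general *Cox7a2* was 0.74, 0.64, 0.79 and 0.51 in the WT hearts and 0.33, 0.45, 0.51 and 0.57 in the hearts labelled SIRT1 KO. The mean differed by -0.21 ± 0.08 (SE, exact permutation p = 0.0571, 0.171 adjusted over the 4 pairs), and the labels overlapped through WT replicate 4 and SIRT1 KO replicate 4. With single hearts left out the difference ranged from -0.26 to -0.16. The exact permutation p was then 0.0571 to 0.114, except without WT replicate 4, where it was the smallest possible. Leaving out either WT replicate 4 or SIRT1 KO replicate 4 takes away the overlap, so the separation then follows from the choice of heart.

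Muscle *Cox6a2* minus general *Cox6a1* was -0.20, -0.45, -0.35 and -0.21 in the WT hearts and -0.45, -0.49, -0.42 and -0.40 in the hearts labelled SIRT1 KO. The mean differed by -0.14 ± 0.06 (SE, exact permutation p = 0.0857, 0.171 adjusted), with WT replicate 2 inside the range of the hearts labelled SIRT1 KO. With single hearts left out it ranged from -0.19 to -0.10. The exact permutation p was 0.114 to 0.171, except without WT replicate 2, where the overlap and with it the p are set by leaving out that heart. *Cox6b2* minus *Cox6b1* differed by 0.02 ± 0.10 (SE, exact permutation p = 0.800), and muscle *Cox8b* minus general *Cox8a* by -0.02 ± 0.05 (SE, exact permutation p = 0.771). No pair passed the threshold after adjustment, which 4 against 4 hearts could hardly allow, since a single separated pair would have an adjusted p of 0.114. Of the single genes, *Cox7a1* lay at -0.21 (adjusted p = 0.244 from limma), *Cox7a2* at -0.01, *Cox6a2* at 0.04, *Cox8b* at -0.09, *Cox8a* at -0.07 and *Cox4i1*, the general form of subunit 4, at -0.05. The sign of *Cox6a2* turned with quantile normalization, median scaling and no scaling, and that of *Cox7a2* with cyclic loess. Scaling on the median of the members also turned *Cox7a2*, *Cox4i1*, *Cox8a* and *Cox8b*. This scaling moves every gene with a value on every array by the same amount. Beside these pairs, 3 of the 4 skeletal muscle markers tested lay wholly above the WT hearts in the hearts labelled SIRT1 KO. These were *Myog* at 0.52, *Myh3* at 0.47 and *Acta1* at 0.36. *Myog* and *Myh3* were dim, with WT means of -5.46 and -3.96, and *Myog* was well above background on only 3 of the 4 WT arrays. *Ckm* lay at -0.14, and the summed signal, which rests mainly on the *Ckm* probe, was 42.2 to 54.8 in WT hearts and 37.4 to 51.3 in the others. Their part in the pairs was not tested.

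**Figure D5:**
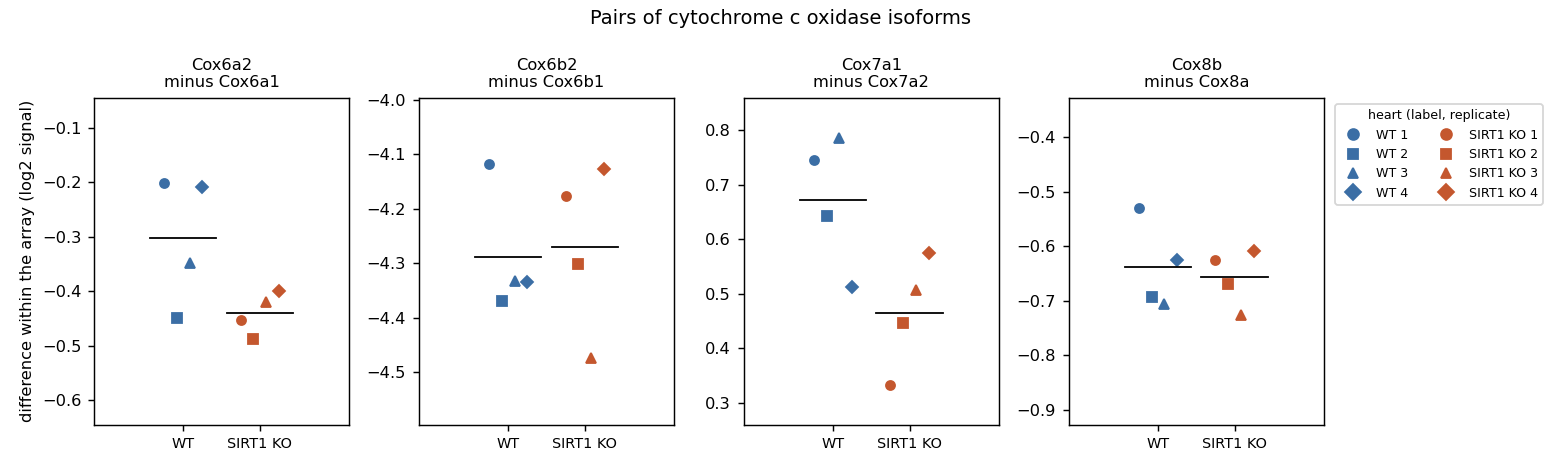
Difference in log2 signal between 2 forms of a complex IV subunit within each array (vertical axis), for 4 pairs, with points for hearts and a short line for the mean of 4 hearts. For *Cox7a1* minus *Cox7a2* the means are 0.67 in WT hearts and 0.46 in hearts labelled SIRT1 KO with overlap, and the 4 panels share the same height of axis but not its position.

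Complex V, the ATP synthase, had 0 calls among 22 probes by limma and 3 probes at an unadjusted p under 0.05, all 3 higher in the hearts labelled SIRT1 KO, where 13.4% of all tested probes were higher at that limit. The catalytic beta subunit gene *Atp5b* had the largest log2 difference of all members. Its brightest probe (A_52_P328078, chromosome 10) read 7.40, 7.64, 7.41 and 7.70 in the WT hearts and 7.80, 7.92, 8.16 and 8.04 in the hearts labelled SIRT1 KO. The labels did not overlap, and the log2 difference was 0.44 ± 0.11 (SE, 95% interval 0.20 to 0.69, limma adjusted p = 0.0528). Over the alternatives the adjusted p ranged from 0.0183 with normexp background correction to 0.141 without WT replicate 3, and it passed the threshold in 5 of 20, while the log2 difference was 0.31 with median scaling and 0.22 with no scaling. The other probes of the gene showed no such gap. A_51_P207636 lay at 0.02 (95% interval -0.19 to 0.22) and A_52_P553841 at 0.10 (95% interval -0.16 to 0.36).

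*Atp5o*, a stalk subunit that confers sensitivity to oligomycin, read 7.34, 7.32, 7.30 and 7.45 in the WT hearts and 7.48, 7.46, 7.77 and 7.61 in the hearts labelled SIRT1 KO. The labels were separated only by the gap between 7.45 and 7.46, and the log2 difference was 0.23 ± 0.09 (SE, limma adjusted p = 0.181), which was 0.10 with median scaling and 0.01 with no scaling. *Atp5g3*, 1 of 3 genes for the c subunit of the rotating ring, lay at 0.26 (adjusted p = 0.228), and without SIRT1 KO replicate 4 at 0.37, with an adjusted p of 0.0432. *Atp5g2*, another c subunit gene, had the lowest value of complex V on its brightest probe, -0.12 (adjusted p = 0.544), with its second probe at 0.03. The remaining brightest probes of complex V lay between these values. Across all complexes, 20 genes had several tested probes, and in 8 of them (*Atp5g2*, *Cycs*, *Ndufa8*, *Ndufab1*, *Ndufc1*, *Ndufv3*, *Sdha* and *Uqcrc1*) the probes disagreed in sign.

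The other genes of the pathway were taken from lists. None of the 26 symbols listed for the 13 subunits encoded in mitochondrial DNA was found among the named probes, so that the mitochondrial share of complexes I, III, IV and V was not analysed here. Assembly factors outside the name rule, for all complexes, were tested for 42 of 46 genes. By limma 0 were called and 8 had an unadjusted p under 0.05, where 4.88% and 21.5% of all tested probes did. Of the 42, 36 were lower and 6 higher, with a median log2 difference of -0.11. Lower were 48.3% of all tested probes and 58.4% of the 8539 brightest. On 7 of the 42 the hearts labelled SIRT1 KO lay wholly below the WT hearts. This held for 5.11% of all tested probes and 6.5% of the 8539 brightest. *Tmem70*, an assembly factor of the ATP synthase, read 3.69, 3.31, 3.50 and 3.48 in the WT hearts and 3.22, 3.07, 3.14 and 3.01 in the hearts labelled SIRT1 KO, which is a log2 difference of -0.39 (limma adjusted p = 0.0543). *Hccs*, which attaches heme to cytochrome c, lay at -0.30 (adjusted p = 0.0637).

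Among factors of mitochondrial DNA transcription and nuclear regulators, 20 of 21 genes were tested, 11 lower and 9 higher, with a median log2 difference of -0.02. The 1 call among 20 was close to the 4.88% of all tested probes, and the 11 lower to the 48.3%. *Tfb1m*, a methyltransferase that modifies mitochondrial ribosomal RNA, was the only one past the threshold. It read 2.02, 1.78, 1.95 and 2.02 in the WT hearts and 1.67, 1.55, 1.60 and 1.56 in the hearts labelled SIRT1 KO, without overlap, and fell by 0.35 ± 0.08 on the log2 scale (SE, limma adjusted p = 0.0383). The call was kept without WT replicate 2 and lost without any other single heart, with adjusted p-values from 0.0504 to 0.106. It was also lost with a block for the replicate number, with no filter on dim probes (0.0805) and with the analysis of variance (0.0552). Scaling arrays on the median of the members ended it too (0.245). The smallest adjusted p of any alternative was 0.0121. *Tefm*, the elongation factor of the mitochondrial RNA polymerase, had the next smallest p and lay at -0.21 (adjusted p = 0.283).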

How the data were processed

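RNA of 4 WT and 4 SIRT1 KO E18.5 hearts was labeled with Cy3, and each heart was hybridized to its own Agilent mouse array. The authors deposited the scanner output of Agilent Feature Extraction (12.0.0.7 in the file headers, an earlier version in the study's methods), in which the processed intensity of each spot is background-subtracted and not scaled between arrays. The deposited series table holds the same intensity values (100% of spots on every array). The study's methods used an analysis of variance with Benjamini-Hochberg correction.

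Control spots were removed here, as were spots marked as outliers, log2 of the processed intensity was taken with no pseudocount, each array's 75th percentile over non-control probes was subtracted, and spots of a probe were averaged. Accessions were named through RefSeq genes (GRCm38.p6), which gave a name to 68.5% of 41174 probes. Linear models with moderated variance were fitted in limma 3.58.1 (R 4.3.3) to the 25615 probes well above background on 4 or more of 8 arrays, with no batch term. Isoform pairs were compared with an exact permutation test over the hearts. A gene with several probes is given by its brightest probe unless stated. On simulated arrays (25535 probes, 200 changed by a log2 fold change of 1) limma recovered 86.5% of the changed probes, and 5.98% of its calls were false. The log2 differences of the members ranged only from -0.34 to 0.44, and recovery at sizes within that range was not tested. Python 3.11.15, numpy 2.4.6, pandas 2.3.3 and matplotlib 3.10.9 were used.

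The members and gene lists were chosen with earlier results of these data known. Genes were named by rule: members past the threshold, in each complex the 2 smallest p and the largest rise and fall on the brightest probe, both genes of an isoform pair, and the genes of the other lists past the threshold or with the 2 smallest p. *Ndufa12*, *Cox7a2l*, *Atp5g3*, *Sdhb* and the assembly factors other than *Ndufaf2* and *Ndufaf4* were named after their values were seen, as were the 4 promoters. Alternatives were another background correction, 5 other scalings, other filters, analysis of variance, array weights, a block for the replicate number, and leaving out each heart.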

Additional observations from a re-analysis of the deposited data

Results flagged for a closer look

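In 78 groups of 4 values (the 2 labels of each named gene, isoform pair and complex), 7 had a single heart set apart from the other 3 by more than Dixon's 95% critical value allows. Chance sets apart about 1 group in 20. Replicate 3 labelled SIRT1 KO was the highest of its group for *Ndufaf2* at 3.41, for *Sdhc* at 4.99 and for *Cox6a2* at 8.06. WT replicate 4 was the lowest of its group for *Cycs* at 7.02 and for *Cox7a1* at 7.32. WT replicate 1 was the highest for *Cox6b2* minus *Cox6b1*, at -4.12, and WT replicate 3 the lowest for the complex V median deviation, at -0.027. The first 3 fall on the heart that was the highest of all 8 on 65 of 116 member probes.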

How the results depend on the processing

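At the main settings 1 member probe passed the threshold. This count was 4 with normexp background correction on the median signal, 5 with median scaling, 48 with no scaling, 2 with cyclic loess, 2 with probes well above background on all 8 arrays, 3 with array weights, and 0 with no filter on dim probes or with the analysis of variance. Leaving out single hearts gave 0 to 2, 2 of them without SIRT1 KO replicate 3. The median log2 difference of the members was -0.19 with median scaling and -0.28 with no scaling, where the median of all tested probes moved to -0.12 and -0.21, and it ranged from -0.13 to -0.01 with single hearts left out. The normexp correction was planned on the mean signal and was not run on it, since the files used hold the median signal. It and scaling on the member median were chosen after seeing the data.

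Of all tested probes 1250 passed, and 2630 with normexp, 6352 with no scaling, 546 with the analysis of variance, 2277 with array weights, and 657 to 1825 with single hearts left out (658 and 657 for WT replicates 2 and 3, 728 and 726 for SIRT1 KO replicates 1 and 2, 1825 for SIRT1 KO replicate 3). Scaling also moved the direction of these calls. Of 1250 calls 1017 were higher in the hearts labelled SIRT1 KO, against 680 of 1784 with median scaling, 639 of 6352 with no scaling, 673 of 1053 with quantile normalization and 749 of 1063 with cyclic loess. The count of assembly factors outside the rule was 0, then 3 with normexp, 5 with median scaling, 23 with no scaling, 1 with probes well above background on all 8 arrays and 4 with array weights, and was 0 to 1 with single hearts left out. The count of regulators was 1, then 6 with no scaling, 0 with no filter or with the analysis of variance, and 0 to 1 with single hearts left out.

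*Cox7a1* minus *Cox7a2* was -0.24 with normexp and -0.19 as a mean over all probes of each gene, both with the smallest exact permutation p, 0.0286, and -0.26 to -0.16 with single hearts left out. *Cox6a2* minus *Cox6a1* was -0.19 to -0.10 with single hearts left out, *Cox6b2* minus *Cox6b1* -0.029 to 0.087, and *Cox8b* minus *Cox8a* -0.041 to 0.018. The sign of single genes turned as follows. With median scaling *Ndufa4* was -0.055, *Ndufs3* -0.036, *Sdhd* -0.0036, *Uqcrq* -0.050, *Cycs* -0.046 and *Cox6a2* -0.089. With no scaling they were -0.146, -0.127, -0.095, -0.141, -0.137 and -0.180, and *Cox6a1* was -0.042. *Cox6a2* was -0.036 with quantile normalization and *Cox7a2* 0.027 with cyclic loess, 0.033 with array weights and 0.106 scaled on the member median. On that last scale *Cox4i1* was 0.067, *Cox8a* 0.045 and *Cox8b* 0.027. With single hearts left out *Uqcrq* ranged from -0.0018 to 0.14, *Cox6a2* from -0.014 to 0.076, *Cox7a2* from -0.061 to 0.095 and *Cox4i1* from -0.12 to 0.00017. Median scaling, no scaling and scaling on the member median move every probe with a value on every array by the same amount. By construction this turns the small values. The cause of the other changes was not tested. Of 536 alternatives for single genes, 465 kept both direction and side of the threshold.

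Labels give both genotypes the replicate numbers 1 to 4, and the study's design text speaks of 4 pairs of hearts, but neither says what pairs them. Same-numbered hearts deviated with r of 0.20, 0.21, 0.06 and 0.14. Each heart correlated best with its own number, a hint from the data, but 1 pair stayed under 0.1, so the numbers were not used as pairs. With the replicate number as a block, 0 member probes, 0 regulators and 1185 of all tested probes passed, and the adjusted p was 0.0940 for *Ndufaf2* and 0.0576 for *Tfb1m*.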
